A study of Arabidopsis thaliana with 24 samples.

Results

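The effect of estradiol (EST) induction of axr3-1 in Arabidopsis thaliana roots was compared between 24 h and 4 h, in 12 of the 24 RNA-Seq libraries of the series. They were chosen by their labels as the 3 EST 24 h, 3 DMSO 24 h, 3 EST 4 h and 3 DMSO 4 h libraries. All 12 came from plants of a single homozygous line, pANT:XVE>>axr3-1-YFP, which all groups share. Plants were moved to the treatment plates when 9 d old and harvested 24 h or 4 h later, so age at harvest differed with time. EST plants received 5 µM estradiol and DMSO plants the solvent alone, and RNA was taken from segments of the main root. The 24-h plants and the 4-h plants belonged to separate experiments, each repeated 3 times. An effect of the time of treatment therefore cannot be told apart from a difference between the experiments. The other 12 libraries, EST + BAP and BAP at the same 2 times (BAP is a synthetic cytokinin, given at 1 µM), served as a second set of samples for the same comparison. Nothing in the labels gives an EST-treated line without the transgene, so effects of estradiol itself and of axr3-1 cannot be told apart.

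Auxin acts on transcription by causing the breakdown of Aux/IAA proteins, which otherwise repress auxin response factors at their target genes. axr3-1 encodes a form of the Aux/IAA protein AXR3 (IAA17) that resists this breakdown and so blocks auxin responses where it is made. In the line studied here the fusion with YFP is made where XVE, an estradiol-dependent transcription factor driven by the promoter of ANT, is present, and ANT is active in the vascular cambium, the layer of dividing cells that thickens roots. Expression is given as CPM, the count of a gene scaled by the normalised size of its library. CPM can be set side by side between libraries for 1 gene but not between genes of different length. In root segments that hold many cell types, fewer cells of a type and less RNA per cell cannot be told apart.

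The 12 libraries held between 14514022 and 44011021 estimated counts. DMSO 24 h replicate 1 stood apart, with 54.1% of its counts on ribosomal RNA genes and 6001669 counts on the other nuclear genes, against 20562450 to 39249639 in the other 11 libraries. Ribosomal RNA took 8.84% to 13.5% of the counts in EST 24 h libraries, against 3.94% and 4.75% in DMSO 24 h replicates 2 and 3, and 1.55% to 4.21% in the 4-h libraries. The part of this difference in the results was not tested beyond the following fits. Without DMSO 24 h replicate 1 the term was called for 394 genes in the positive and 576 in the negative direction. With organelle and ribosomal RNA genes left out, 469 positive and 673 negative terms were called, 422 and 673 of them shared with the main fit. That fit called 1210 genes higher and 1632 lower at 24 h. Of markers for the tissue, 38 of 42 cambium regulators, 35 of 37 xylem genes and 22 of 22 phloem genes were expressed highly enough to be tested. Over all genes 22021 of 34212 were tested. All 8 endodermis genes and all 8 epidermis and root hair genes listed were tested as well, so being tested does not tell tissues apart. DMSO 24 h and DMSO 4 h libraries themselves differed at 5473 of the 22021 genes tested (24.85%), and such genes made up 35.88% of those whose EST effect differed between the times, so the DMSO level at each time is given for the genes described in full. A gene given by its term alone can differ between the DMSO groups too.

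The question was whether the EST effect at 24 h differed from that at 4 h. The EST by time term is the log2 ratio of EST to DMSO at 24 h minus the same log2 ratio at 4 h. A term was called at an adjusted p of at most 0.05 in edgeR's quasi-likelihood test with Benjamini-Hochberg adjustment over the 22021 genes, and a called effect at 1 time had to exceed 0.5 on the log2 scale as well. The term was positive for 422 genes (1.92% of those tested) and negative for 718 (3.26%), while 4633 genes had an unadjusted p under 0.05. At 24 h, 1099 genes (4.99%) were higher and 1719 genes (7.81%) lower in EST than in DMSO. At 4 h, 12 genes (0.0545%) were higher and 1 gene (0.00454%) lower, with 825 genes at an unadjusted p under 0.05. All 3 EST libraries lay above all 3 DMSO libraries for 19.56% of genes at 24 h against 2.8% at 4 h, and below them for 21.38% at 24 h against 3.3% at 4 h.

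The calls of the term moved with the libraries used, but the sign of no called gene did. Leaving out DMSO 24 h replicate 3 left 182 positive and 289 negative terms, and 687 higher and 1140 lower genes at 24 h. Without EST 24 h replicates 1, 2 and 3 the counts of the term were 254 and 381, 242 and 345, and 239 and 402, without DMSO 4 h replicate 1 they were 271 and 384, and without DMSO 4 h replicate 2 they were 262 and 366. All 1140 called genes kept their sign without any single library, and 420 of them, 158 positive and 262 negative, were called each time.

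**Figure D1:**
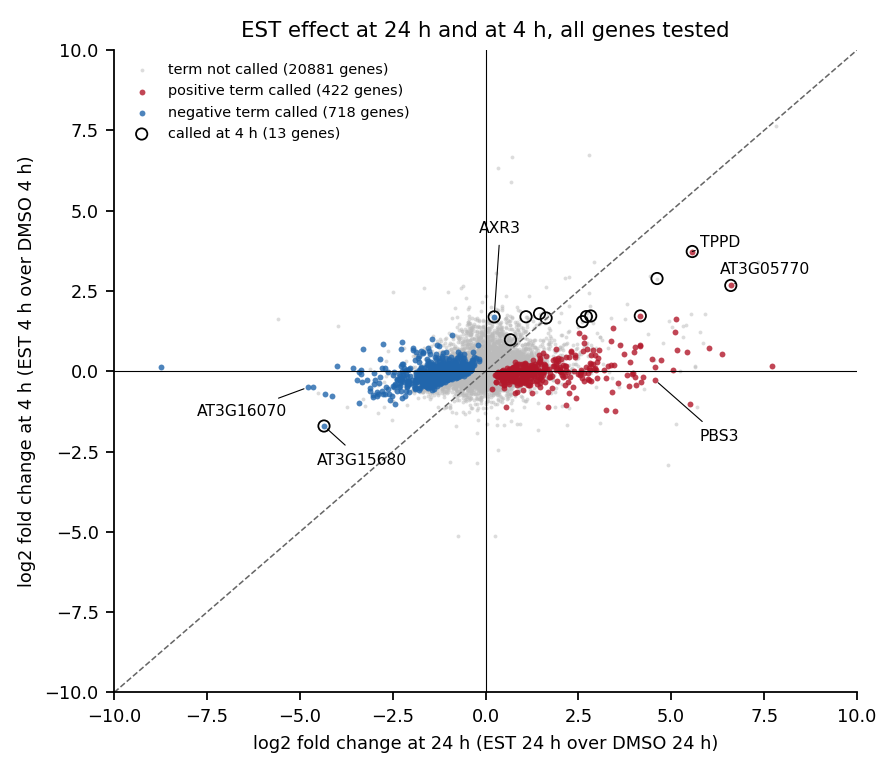
Log2 fold change of EST over DMSO at 24 h (horizontal axis) and at 4 h (vertical axis) for the 22021 genes tested, 1 point a gene, with the 422 genes of positive and the 718 genes of negative EST by time term in colour. On the 4-h axis 375 of the 422 and 657 of the 718 coloured genes lie within 0.5 of 0, while AXR3 lies at 1.69 at 4 h and 0.23 at 24 h.

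Most differences between the times came from genes with a 24-h effect and a 4-h effect near 0. Since the term is computed from both effects, the following values describe it and are no further evidence. Genes of positive term had a median log2 fold change of 1.08 at 24 h and -0.04 at 4 h, and 375 of the 422 (88.86%) lay within 0.5 of 0 at 4 h. Genes of negative term had medians of -1.11 at 24 h and -0.02 at 4 h, and 657 of the 718 (91.5%) lay within 0.5 of 0 at 4 h. In 5 genes of positive and 9 of negative term the effect was larger in size at 4 h. The 2 effects share no library, and across the 22021 genes, which are not independent replicates, their log2 fold changes had a Pearson r of 0.23 and a Spearman rho of 0.125. Of the 1099 genes higher at 24 h, 703 (63.97%) had a positive log2 fold change at 4 h, against 49.64% of all genes. Of the 1719 genes lower at 24 h, 1174 (68.3%) had a negative one at 4 h, against 50.3% of all genes.

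AXR3 was among the 9 genes of negative term whose EST effect was larger at 4 h. It (chr1:1136078-1138663, like all positions here on TAIR10.1) is the Aux/IAA gene whose mutant form the line carries, and it had 89.9, 81.6 and 85.2 CPM in EST 24 h and 70.04, 70.6 and 77.9 CPM in DMSO 24 h. At 4 h it had 131, 167 and 177 CPM in EST and 50.9, 47.6 and 48.5 CPM in DMSO. EST libraries lay above DMSO libraries at both times, and the EST 4 h libraries above all others. Its log2 fold change was 0.23 at 24 h (adjusted p = 0.160) and 1.69 at 4 h (adjusted p = 3.25e-05), and the term was -1.46 (SE 0.15, adjusted p = 0.000758). The counts are summed per gene and were not split between the resident AXR3 gene and the axr3-1 transgene. ANT, whose promoter drives XVE, had 13.2, 21.2 and 19.3 CPM in EST 24 h and 100.5, 93.2 and 127 CPM in DMSO 24 h. At 4 h, ANT had 28.9, 45.9 and 49.05 CPM in EST and 58.2, 77.2 and 92.3 CPM in DMSO. ANT encodes an AP2-type transcription factor that promotes cell division, its libraries did not overlap at either time, and its term was -1.70 (SE 0.33, adjusted p = 0.0147). Whether the level of ANT bears on that of AXR3 was not tested.

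Of the 13 genes called at 4 h, all had the same sign at 24 h, and 11 were called there too. TPPD (chr1:13362962-13365172), which encodes a trehalose-6-phosphate phosphatase, had 29.8, 36.4 and 40.7 CPM in EST 24 h and 0.692, 0.817 and 0.691 CPM in DMSO 24 h. At 4 h, TPPD had 22.9, 23.2 and 26.4 CPM in EST and 2.29, 1.72 and 1.47 CPM in DMSO. All EST libraries lay above all DMSO libraries at both times. The DMSO level itself was lower at 24 h than at 4 h, by a log2 value of -1.28 (adjusted p = 0.00266), and the term was 1.84 (SE 0.27, adjusted p = 0.00441). AT3G15680 (chr3:5314817-5316617), annotated as a Ran BP2/NZF zinc finger-like protein, was the 1 gene lower at 4 h, with 2.94, 2.804 and 2.61 CPM in EST and 8.28, 8.39 and 10.6 CPM in DMSO. At 24 h it had 0.756, 0.592 and 0.640 CPM in EST and 12.3, 12.8 and 15.6 CPM in DMSO, so the 2 groups were farther apart, and the term was -2.65 (SE 0.22, adjusted p = 0.000584). For AT4G24050, annotated as a Rossmann-fold protein, and the uncharacterized AT3G07425, the terms of 1.01 and -0.34 did not pass the test (adjusted p = 0.0636 and 0.500).

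The other 8 genes called at 4 h are named after their values were seen. Among them the uncharacterized AT3G05770 had 28.9, 36.9 and 31.6 CPM in EST 24 h and 0.138, 0.426 and 0.285 CPM in DMSO 24 h. At 4 h, AT3G05770 had 3.02, 3.498 and 3.604 CPM in EST and 1.13, 0.307 and 0.206 CPM in DMSO. The bHLH gene AT2G40200 had 11.9, 14.47 and 14.96 CPM in EST 24 h and 0.692, 0.781 and 0.772 CPM in DMSO 24 h. At 4 h, AT2G40200 had 2.400, 2.62 and 3.75 CPM in EST and 1.01, 0.696 and 0.969 CPM in DMSO. Both were higher in EST at each time and more so at 24 h, with terms of 3.93 (SE 0.65, adjusted p = 0.00727) and 2.44 (SE 0.31, adjusted p = 0.00246). The terms of NAC019, MES10, AT1G10530, AT2G30933, AT3G47800 and CYP715A1 ran between -0.61 and 1.73 and did not pass the test. AXR3 and CYP715A1 were the 2 of the 13 genes not called at 24 h. CYP715A1 had 0.476, 0.757 and 0.842 CPM in EST 24 h and 0.415, 0.284 and 0.325 CPM in DMSO 24 h. At 4 h, CYP715A1 had 9.65, 9.44 and 11.4 CPM in EST and 2.11, 4.56 and 2.64 CPM in DMSO. Only AXR3, TPPD and AT3G15680 kept their 4-h call under each of the 19 alternative settings and omissions of a library, and the 12 genes higher at 4 h became 6 without DMSO 24 h replicate 1, 6 without DMSO 4 h replicate 2, 6 without EST 24 h replicate 3 and 5 without EST 4 h replicate 3, and 7 without DMSO 24 h replicate 2, DMSO 4 h replicate 3 or EST 24 h replicate 1 or 2. Without DMSO 4 h replicate 1, 2 genes were lower at 4 h.

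**Figure D2:**
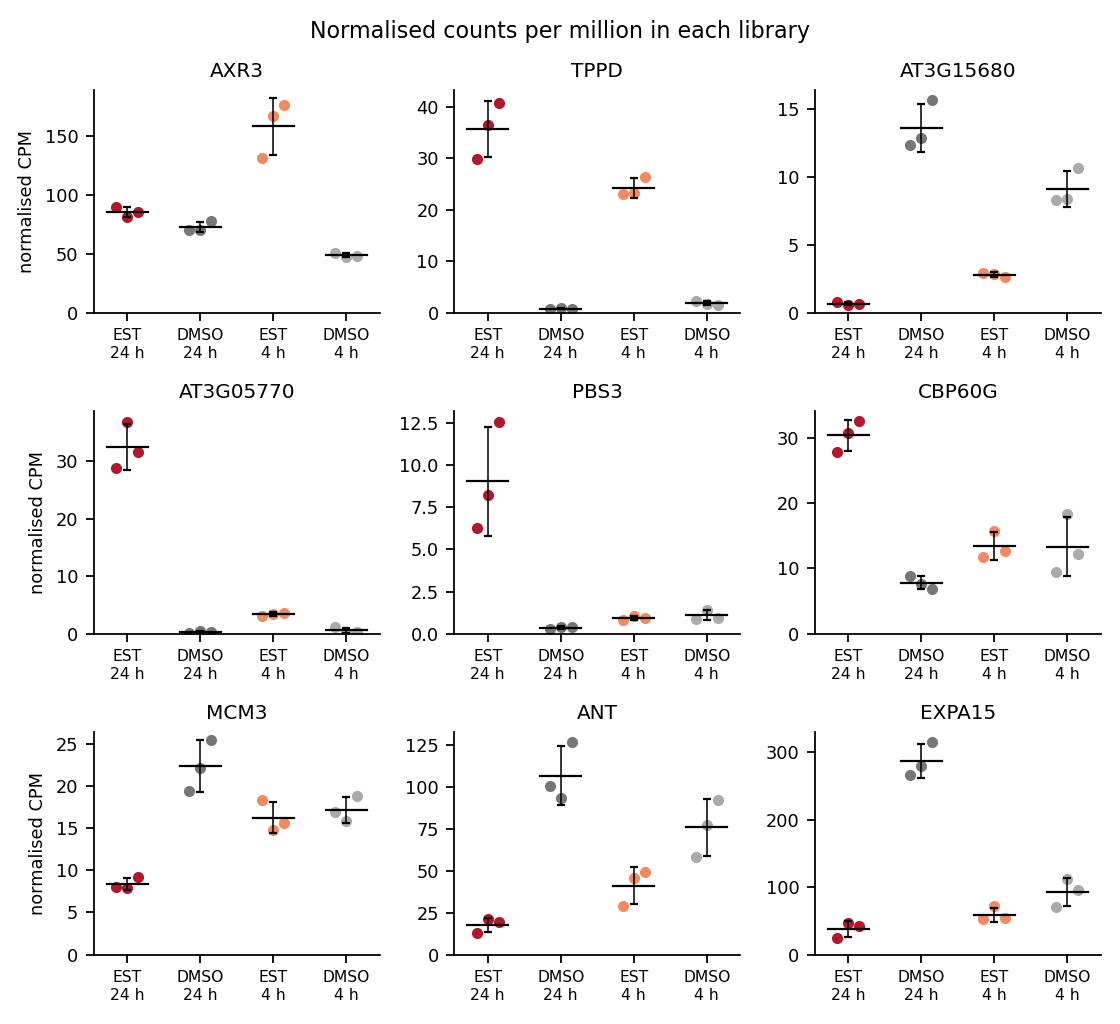
Normalised CPM of 9 genes in each library (points), with the group mean (bar) and SD (error bar, n = 3), for EST 24 h, DMSO 24 h, EST 4 h and DMSO 4 h. AXR3 was highest in EST 4 h, TPPD and AT3G15680 separated EST from DMSO at both times, and PBS3, CBP60G, MCM3 and EXPA15 separated them at 24 h.

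Genes of DNA replication were lower in EST at 24 h and near the DMSO level at 4 h. The term was negative and called for 16 of the 24 genes tested and positive for none, beside 3.26% of all genes, and 17 were lower at 24 h, beside 7.81%. The median log2 fold change of the 24 genes was -0.97 at 24 h and -0.01 at 4 h, and their median term was -0.91, where the median term over all genes was -0.01. The summed level of the list lay between 179 and 183 CPM in EST 24 h libraries, against 329 to 398 CPM in DMSO 24 h, and between 287 and 348 CPM in EST 4 h, against 315 to 335 CPM in DMSO 4 h. The EST 24 h libraries thus lay below all others. Called terms numbered between 12 and 17 when any single library was left out.

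The promoters of 5 subunits of the MCM helicase, which unwinds DNA ahead of the replication fork, and of ICU2, the catalytic subunit of DNA polymerase alpha, are shown because these genes moved together and because 8 of the 16 called genes held a match to an E2F-type motif. They were chosen among genes with a match, and MCM7, the other subunit, held neither motif. E2F transcription factors are known to act on S-phase genes through such motifs. The 250 bases before each annotated gene start were read from the RefSeq TAIR10.1 genome and are given 5′ to 3′ on the strand of the gene, with capitals marking TTTCCCGC or TTTGGCGC on either strand. MCM3 lies at chr5:18773707-18773956 (minus strand), MCM5 at chr2:3527501-3527750 (minus), MCM4 at chr2:7130730-7130979 (minus), MCM6 at chr5:18010668-18010917 (minus), MCM2 at chr1:16969964-16970213 (plus) and ICU2 at chr5:26776703-26776952 (plus).
MCM3: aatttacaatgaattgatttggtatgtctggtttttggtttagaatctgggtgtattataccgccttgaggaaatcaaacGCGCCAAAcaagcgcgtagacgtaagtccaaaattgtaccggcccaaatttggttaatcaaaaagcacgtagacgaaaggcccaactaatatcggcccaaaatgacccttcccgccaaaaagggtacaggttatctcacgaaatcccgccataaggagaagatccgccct
MCM5: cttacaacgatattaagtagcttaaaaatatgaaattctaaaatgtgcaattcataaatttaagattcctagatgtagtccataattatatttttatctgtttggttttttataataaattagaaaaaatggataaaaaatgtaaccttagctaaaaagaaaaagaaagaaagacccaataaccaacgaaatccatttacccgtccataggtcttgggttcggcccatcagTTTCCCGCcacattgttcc
MCM4: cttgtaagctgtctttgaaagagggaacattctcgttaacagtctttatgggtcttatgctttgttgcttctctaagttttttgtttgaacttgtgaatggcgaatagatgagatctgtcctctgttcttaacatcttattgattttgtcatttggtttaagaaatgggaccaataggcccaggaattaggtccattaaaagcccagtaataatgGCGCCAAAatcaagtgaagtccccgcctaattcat
MCM6: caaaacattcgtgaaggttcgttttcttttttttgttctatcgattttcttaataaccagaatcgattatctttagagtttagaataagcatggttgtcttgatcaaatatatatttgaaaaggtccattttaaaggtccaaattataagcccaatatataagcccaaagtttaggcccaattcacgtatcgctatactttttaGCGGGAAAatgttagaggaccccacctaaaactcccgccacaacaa
MCM2: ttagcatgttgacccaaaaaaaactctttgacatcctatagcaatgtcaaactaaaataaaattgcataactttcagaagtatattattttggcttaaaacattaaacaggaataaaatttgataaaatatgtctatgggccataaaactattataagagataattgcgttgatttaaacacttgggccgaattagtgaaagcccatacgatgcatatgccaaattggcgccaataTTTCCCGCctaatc
ICU2: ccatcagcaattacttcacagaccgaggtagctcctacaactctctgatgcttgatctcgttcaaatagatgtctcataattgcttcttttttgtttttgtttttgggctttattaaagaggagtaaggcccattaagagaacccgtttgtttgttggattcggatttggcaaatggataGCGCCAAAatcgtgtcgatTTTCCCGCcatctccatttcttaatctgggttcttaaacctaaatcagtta
Over the window from 250 bases before to 50 after the gene start, 289 of the 21772 promoters of tested genes (1.33%) held either motif, 178 of them TTTCCCGC and 117 TTTGGCGC. Either motif stood in 10 of the 24 DNA replication genes (41.67%), in 36 of the 718 genes of negative term (5.01%) and in 2 of the 422 genes of positive term (0.47%). A match is a run of letters and not a measured binding site.

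MCM3 had 7.98, 7.89 and 9.199 CPM in EST 24 h and 19.4, 22.2 and 25.4 CPM in DMSO 24 h. At 4 h, MCM3 had 18.4, 14.8 and 15.6 CPM in EST and 16.9, 15.8 and 18.8 CPM in DMSO. Its groups did not overlap at 24 h and overlapped at 4 h, with a term of -1.35 (SE 0.17, adjusted p = 0.00246). MCM5 had 9.86, 10.2 and 10.04 CPM in EST 24 h and 21.4, 22.4 and 25.6 CPM in DMSO 24 h. At 4 h, MCM5 had 20.3, 16.1 and 17.8 CPM in EST and 18.8, 18.2 and 20.7 CPM in DMSO, and the term was -1.12 (SE 0.14, adjusted p = 0.00250). ICU2 had 12.9, 13.7 and 12.9 CPM in EST 24 h and 26.4, 25.7 and 26.9 CPM in DMSO 24 h. At 4 h, ICU2 had 23.1, 20.5 and 23.3 CPM in EST and 22.6, 26.2 and 24.7 CPM in DMSO, and the term was -0.87 (SE 0.11, adjusted p = 0.00272). For both genes the EST 24 h libraries lay below all other libraries. The other MCM subunits had negative terms too. MCM2 averaged 11.4 ± 0.670 CPM in EST 24 h and 25.1 ± 5.03 CPM in DMSO 24 h, MCM4 9.06 ± 0.464 and 20.00 ± 2.88 CPM, MCM6 6.93 ± 0.385 and 16.3 ± 3.04 CPM, and MCM7 8.49 ± 0.336 and 19.4 ± 2.27 CPM (SD, n = 3 each), and their terms ran between -1.22 and -1.06. PCNA1 and PCNA2, which encode the sliding clamp, had terms of -1.35 and -1.07. RNR1 and TSO2, the large and a small subunit of ribonucleotide reductase, had terms of -0.81 and -0.74. FAS1 and FAS2, of the chromatin assembly complex that places histones behind the fork, had terms of -0.84 and -0.79. Called terms were also found for CDC45, ORC1B and CDT1A, which act in loading or starting the helicase. PSF1 and PSF3, of the GINS complex, had terms of -0.09 and -0.01 that did not pass the test.

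Genes of mitosis and cytokinesis were lower at 24 h in 19 of 32 cases, beside 7.81% of all genes, while the term was called for 6, all negative, beside 3.26%. The medians of the list were -0.73 at 24 h and -0.17 at 4 h, with a median term of -0.59. CYCA2;3, an A-type cyclin, had 3.501, 3.39 and 3.81 CPM in EST 24 h and 14.1, 9.59 and 11.4 CPM in DMSO 24 h. At 4 h, CYCA2;3 had 8.93, 8.47 and 9.93 CPM in EST and 9.44, 11.9 and 13.3 CPM in DMSO. CDKB1;1, a plant-specific cyclin-dependent kinase, had 4.99, 5.76 and 6.200 CPM in EST 24 h and 16.1, 13.3 and 13.6 CPM in DMSO 24 h. At 4 h, CDKB1;1 had 15.4, 14.1 and 16.03 CPM in EST and 17.9, 14.3 and 21.9 CPM in DMSO. In both genes EST and DMSO libraries were apart at 24 h and overlapped at 4 h. The terms were -1.34 (SE 0.22, adjusted p = 0.00698) for CYCA2;3 and -1.08 (SE 0.21, adjusted p = 0.0141) for CDKB1;1. PLE, a microtubule-associated protein of the phragmoplast, had 5.07, 3.98 and 5.56 CPM in EST 24 h and 14.53, 10.8 and 11.3 CPM in DMSO 24 h. At 4 h, PLE had 14.4, 14.4 and 15.2 CPM in EST and 13.3, 16.6 and 19.5 CPM in DMSO, and the term was -1.13 (SE 0.23, adjusted p = 0.0163). The other called terms were those of the cyclin CYCA1;1, the Aurora kinase AUR2 and MYB3R4, a transcription factor of G2/M genes, at -0.97, -1.11 and -1.32. The count of 6 was 3 without DMSO 24 h replicate 1 or 3, DMSO 4 h replicate 1 or 2, EST 24 h replicate 2 or 3, or EST 4 h replicate 2, and 10 with all 24 libraries in one fit. For 17 of the 32 genes the DMSO groups differed between the times.

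The promoters of PLE (chr5:20964538-20964787, minus strand) and CYCA1;1 (chr1:16777353-16777602, minus strand) are shown with capitals marking AACGG on either strand, the core of the element through which MYB3R factors are known to act.
PLE: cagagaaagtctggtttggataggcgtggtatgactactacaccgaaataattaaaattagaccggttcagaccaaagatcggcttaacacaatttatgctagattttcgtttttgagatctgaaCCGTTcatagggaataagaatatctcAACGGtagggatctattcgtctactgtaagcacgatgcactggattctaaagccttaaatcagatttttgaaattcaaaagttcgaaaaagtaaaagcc
CYCA1;1: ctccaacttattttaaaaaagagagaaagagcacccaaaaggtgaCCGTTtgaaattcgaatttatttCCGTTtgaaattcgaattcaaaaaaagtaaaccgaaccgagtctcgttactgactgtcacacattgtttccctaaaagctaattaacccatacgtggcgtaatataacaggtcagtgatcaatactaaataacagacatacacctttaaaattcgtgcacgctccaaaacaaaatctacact
AACGG stood in 21 of the 32 promoters of the mitosis list (65.62%) and in 4 of the 6 with a called term, against 25.75% of all promoters read, 27.99% of those of negative term and 19.19% of those of positive term. AACGG also stood in 11 of 13 histone promoters (84.62%) and in 7 of 11 promoters of the auxin carriers (63.64%), so its share was not particular to mitosis genes. None of the 32 held either E2F-type motif.

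Histone genes of the H3.1 and H4 types, which package newly made DNA, had 5 negative terms among 13, beside 3.26% of all genes, with medians of -0.53 at 24 h and 0.12 at 4 h. AT5G10400, a histone H3 gene, had 10.9, 9.51 and 11.9 CPM in EST 24 h and 21.4, 17.6 and 20.12 CPM in DMSO 24 h. At 4 h, AT5G10400 had 36.99, 26.4 and 25.4 CPM in EST and 25.3, 23.4 and 22.6 CPM in DMSO. EST libraries were below DMSO at 24 h and above DMSO at 4 h, although the 4-h effect of 0.32 did not pass the test, and the term was -1.18 (SE 0.20, adjusted p = 0.00858). Histone genes have similar copies among which reads can be split, so values of single histone genes are uncertain. For AT5G10400 no copy reached 95% identity over 50% of the transcript.

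Expansins loosen cell walls during growth, and 7 of the 9 tested were lower in EST at 24 h, beside 7.81% of all genes, with 4 negative terms, beside 3.26%. EXPA15 had 24.3, 47.5 and 42.2 CPM in EST 24 h and 266, 279 and 315 CPM in DMSO 24 h. At 4 h, EXPA15 had 52.6, 71.3 and 54.3 CPM in EST and 71.2, 112 and 96.3 CPM in DMSO. The DMSO 24 h libraries stood above all others, and the DMSO groups themselves differed by a log2 value of 1.62 between 24 h and 4 h (adjusted p = 0.000662). The term of EXPA15 was -2.27 (SE 0.33, adjusted p = 0.00384). EXPA6 had 38.7, 34.5 and 37.4 CPM in EST 24 h and 115, 102 and 138 CPM in DMSO 24 h. At 4 h, EXPA6 had 34.2, 46.1 and 64.9 CPM in EST and 42.4, 59.7 and 67.9 CPM in DMSO, and the term was -1.46 (SE 0.31, adjusted p = 0.0219). Again the DMSO 24 h libraries were the highest. EXPA17 and EXPA8 had called terms of -1.67 and -2.38 close to the threshold (adjusted p = 0.0485 and 0.0498). The 4 called terms became 1 without DMSO 24 h replicate 3, EST 24 h replicate 2 or EST 24 h replicate 3, and 2 without DMSO 4 h replicate 1 or 3, EST 24 h replicate 1 or EST 4 h replicate 3. With DESeq2 size factors in edgeR, or with organelle and ribosomal RNA genes left out, 2 were called.

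Aux/IAA genes, which auxin induces and whose products repress auxin responses, were lower in EST at 24 h in 12 of 24 cases (7.81% of all genes) and higher in 1 (4.99% of all genes). They had 6 negative terms (3.26% of all genes) and no positive one. The medians were -0.59 at 24 h and -0.05 at 4 h. SHY2 (IAA3) had 25.97, 24.4 and 21.3 CPM in EST 24 h and 51.5, 55.9 and 60.00 CPM in DMSO 24 h. At 4 h, SHY2 had 19.8, 15.9 and 19.3 CPM in EST and 20.6, 23.9 and 22.03 CPM in DMSO. Its DMSO level was higher at 24 h than at 4 h, EST libraries lay below DMSO libraries at both times, and the term was -0.95 (SE 0.15, adjusted p = 0.00604). IAA9 had 207, 233 and 223 CPM in EST 24 h and 431, 421 and 404 CPM in DMSO 24 h. At 4 h, IAA9 had 277, 298 and 347 CPM in EST and 327, 339.6 and 370.4 CPM in DMSO, and the term was -0.75 (SE 0.14, adjusted p = 0.0126). IAA1 had 12.04, 15.1 and 11.9 CPM in EST 24 h and 17.02, 20.6 and 19.9 CPM in DMSO 24 h. At 4 h, IAA1 had 13.4, 10.3 and 12.4 CPM in EST and 7.41, 9.55 and 7.69 CPM in DMSO. For IAA1 the EST libraries lay below DMSO at 24 h and above DMSO at 4 h, where the log2 fold change of 0.55 did not pass the test (adjusted p = 0.600), and the term was -1.12 (SE 0.20, adjusted p = 0.00969). IAA4, IAA8 and IAA19 had called terms of -0.68, -0.71 and -1.19. The 6 terms became 3 without DMSO 24 h replicate 3 or EST 24 h replicate 3, and 2 at a log2 cutoff of 1. Of the 10 auxin-induced GH3 and LBD genes tested, which conjugate auxin or act in lateral root formation, none was called at either time or for the term. At the shares of all genes given above, a count of none among 10 does not set them apart.

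Among the carriers that move auxin out of and into cells, 7 of 11 were lower at 24 h, beside 7.81% of all genes, and 4 had negative terms, beside 3.26%, with medians of -0.86 at 24 h and -0.01 at 4 h. The efflux carrier gene PIN7 had 26.5, 23.4 and 23.8 CPM in EST 24 h and 61.04, 59.9 and 53.1 CPM in DMSO 24 h. At 4 h, PIN7 had 36.2, 33.2 and 45.56 CPM in EST and 37.03, 45.2 and 43.1 CPM in DMSO. Its groups were apart at 24 h and overlapped at 4 h, and the term was -1.11 (SE 0.17, adjusted p = 0.00515). The influx carrier gene LAX3 had 34.3, 48.4 and 41.3 CPM in EST 24 h and 75.8, 74.4 and 75.3 CPM in DMSO 24 h. At 4 h, LAX3 had 71.6, 82.4 and 80.99 CPM in EST and 69.9, 70.6 and 80.5 CPM in DMSO, and the term was -0.95 (SE 0.16, adjusted p = 0.00847). LAX2 had a term of -1.30. Leaving out single libraries gave 3 to 5 called terms, and 7 were called with DESeq2 and 7 with all 24 libraries in one fit.

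Cambium regulators were lower at 24 h in 20 of 38 cases (7.81% of all genes) and higher in 2 (4.99% of all genes), with 8 negative and 2 positive terms (3.26% and 1.92% of all genes). The 2 higher genes make a share near that of all genes. Their medians were -0.69 at 24 h and -0.18 at 4 h. PXC1, a receptor-like kinase gene, had 30.7, 37.2 and 35.4 CPM in EST 24 h and 136, 143 and 169 CPM in DMSO 24 h. At 4 h, PXC1 had 48.9, 66.2 and 93.3 CPM in EST and 82.5, 99.7 and 108 CPM in DMSO, and the term was -1.64 (SE 0.28, adjusted p = 0.00801). CLE44, a gene for the TDIF peptide made in the phloem, had 5.29, 4.97 and 5.93 CPM in EST 24 h and 12.7, 10.5 and 12.1 CPM in DMSO 24 h. At 4 h, CLE44 had 9.28, 8.59 and 11.8 CPM in EST and 8.43, 11.7 and 11.98 CPM in DMSO, and the term was -0.998 (SE 0.23, adjusted p = 0.0283). In both, EST 24 h libraries lay below all others. Other negative terms were those of CLE43 (-2.46), PEAR1 (-1.41), DOF1.6 (-1.19), LBD4 (-1.19) and CYCD3;3 (-0.59), beside that of ANT. For DOF1.6 and LBD4 the DMSO level was higher at 24 h than at 4 h, by log2 values of 1.54 and 1.08 (adjusted p = 0.00025 and 0.00346). Their EST levels did not pass the test between the times (adjusted p = 0.138 and 0.705). LBD1, of the LOB domain family, went the other way, with 3.501, 3.09 and 3.37 CPM in EST 24 h and 0.692, 0.675 and 0.813 CPM in DMSO 24 h. At 4 h, LBD1 had 0.782, 0.814 and 1.23 CPM in EST and 0.715, 1.21 and 0.822 CPM in DMSO, and the term was 2.15 (SE 0.37, adjusted p = 0.00844). ERF072 also had a positive term, of 0.90. PXY, the receptor of TDIF, had a log2 fold change of -0.83 at 24 h (adjusted p = 0.0147) and -0.39 at 4 h, and its term of -0.44 did not pass the test (adjusted p = 0.406). For WOX4, CLE41 and CYCD3;1 the fall at 24 h passed the test and the terms of -0.63, -0.62 and -0.68 did not, and for LBD3 likewise with a term of -0.49. SVP and DOF3.4 were called neither at 24 h nor for the term. The 8 negative terms became 5 without DMSO 24 h replicate 1 or 2, 2 without DMSO 24 h replicate 3 or EST 24 h replicate 2, 3 without DMSO 4 h replicate 1 or EST 24 h replicate 1, and 4 without DMSO 4 h replicate 2 or EST 24 h replicate 3, and 3 were called with libraries thinned to equal nuclear counts.

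Phloem genes were lower at 24 h in 11 of 22 cases (7.81% of all genes), with 6 negative terms (3.26% of all genes), and 1 was higher, a share near the 4.99% of all genes. SEOR1 and SEOR2, which encode filament proteins of sieve elements, had terms of -1.31 and -1.06. SEOR1 had 31.4, 38.6 and 36.9 CPM in EST 24 h and 83.2, 100.2 and 85.4 CPM in DMSO 24 h. At 4 h, SEOR1 had 64.5, 82.9 and 105 CPM in EST and 71.4, 90.1 and 94.9 CPM in DMSO. CLE45, a peptide gene of the protophloem, had 0.364, 0.362 and 0.303 CPM in EST 24 h and 2.77, 2.63 and 3.13 CPM in DMSO 24 h. At 4 h, CLE45 had 1.02, 0.754 and 1.05 CPM in EST and 1.43, 1.68 and 1.85 CPM in DMSO, and the term was -2.23 (SE 0.31, adjusted p = 0.00358). CLE45 libraries were apart in the same direction at both times, farther at 24 h. SMXL4, CLE25 and BRX, which act in phloem formation, had terms of -1.25, -1.41 and -1.21. Xylem and secondary wall genes had no called term among 35, with 1 gene lower at 24 h and medians of 0.07 at 24 h and -0.02 at 4 h. Over all genes 1.92% of terms were positive, 3.26% were negative and 7.81% of genes were lower at 24 h. Beside these shares the counts do not set the xylem genes apart. With BAP, in a separate fit, 11 of the 35 terms were positive and 2 negative (9.11% and 9.22% of all genes). Among 20 genes of periderm and suberin, the outer protective tissue, 1 term was called, that of KCS20, an enzyme of very long fatty acid synthesis, with 54.7, 43.3 and 45.5 CPM in EST 24 h and 29.2, 28.4 and 26.9 CPM in DMSO 24 h. At 4 h, KCS20 had 37.99, 33.6 and 39.1 CPM in EST and 33.1, 32.6 and 35.6 CPM in DMSO. This 1 call among 20 is near the share over all genes (1.92% positive and 3.26% negative). At 24 h 3 of the 20 were higher and 1 lower (4.99% and 7.81% of all genes). The lower one was PER15, with a log2 fold change of -0.91 (adjusted p = 0.0125). The term of PER15 was -0.98 and did not pass the test (adjusted p = 0.0874). Leaving out single libraries gave 5 to 8 called phloem terms.

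Genes of salicylic acid synthesis and defence had positive terms, called for 10 of the 21 tested beside 1.92% of all genes, and none was negative. At 24 h 12 were higher and none lower (4.99% and 7.81% of all genes), and the medians were 0.76 at 24 h and -0.02 at 4 h. PBS3, which makes a precursor of salicylic acid, had 6.27, 8.26 and 12.6 CPM in EST 24 h and 0.277, 0.391 and 0.406 CPM in DMSO 24 h. At 4 h, PBS3 had 0.782, 1.02 and 0.938 CPM in EST and 0.893, 1.43 and 0.940 CPM in DMSO, and the term was 4.83 (SE 0.45, adjusted p = 0.000662). CBP60G, a transcription factor that turns on the synthesis gene ICS1, had 27.8, 30.7 and 32.6 CPM in EST 24 h and 8.86, 7.599 and 6.87 CPM in DMSO 24 h. At 4 h, CBP60G had 11.7, 15.7 and 12.7 CPM in EST and 9.47, 18.4 and 12.1 CPM in DMSO, and the term was 2.00 (SE 0.30, adjusted p = 0.00453). FMO1, of the pipecolic acid pathway of immunity, had 1.96, 2.86 and 3.47 CPM in EST 24 h and 0.277, 0.320 and 0.163 CPM in DMSO 24 h. At 4 h, FMO1 had 0.863, 0.573 and 0.469 CPM in EST and 0.655, 0.655 and 0.352 CPM in DMSO, and the term was 3.26 (SE 0.55, adjusted p = 0.00771). The DMSO 24 h libraries held only 2 to 9 counts of FMO1, so the size of its term is uncertain. In all 3 genes every EST 24 h library lay above every other library, and the 4-h groups overlapped. SARD1, the partner of CBP60G, averaged 27.3 ± 6.15 CPM in EST 24 h and 4.17 ± 1.79 CPM in DMSO 24 h, against 10.8 ± 0.892 CPM in EST 4 h and 9.12 ± 4.69 CPM in DMSO 4 h (SD, n = 3 each). ICS1 averaged 21.1 ± 2.78 CPM in EST 24 h and 7.72 ± 0.181 CPM in DMSO 24 h, against 11.96 ± 1.32 CPM in EST 4 h and 8.32 ± 0.841 CPM in DMSO 4 h (SD, n = 3 each), and its term was 0.93. Positive terms were also called for PAD4, SAG101, NIMIN1, WRKY54 and WRKY62. Of the terms that did not pass, those of EDS5 and WRKY18 were -0.57 and -0.07. WRKY18 averaged 62.4 ± 3.87 CPM in EST 24 h and 67.3 ± 30.02 CPM in DMSO 24 h, against 353 ± 32.3 CPM in EST 4 h and 358 ± 113 CPM in DMSO 4 h, so that its level differed more between the experiments than between EST and DMSO. The 10 terms became 5 without DMSO 24 h replicate 3, EST 24 h replicate 2 or EST 24 h replicate 3, and 6 without DMSO 24 h replicate 2, DMSO 4 h replicate 2, EST 24 h replicate 1 or EST 4 h replicate 1, and 4 with libraries thinned to equal nuclear counts.

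**Figure D3:**
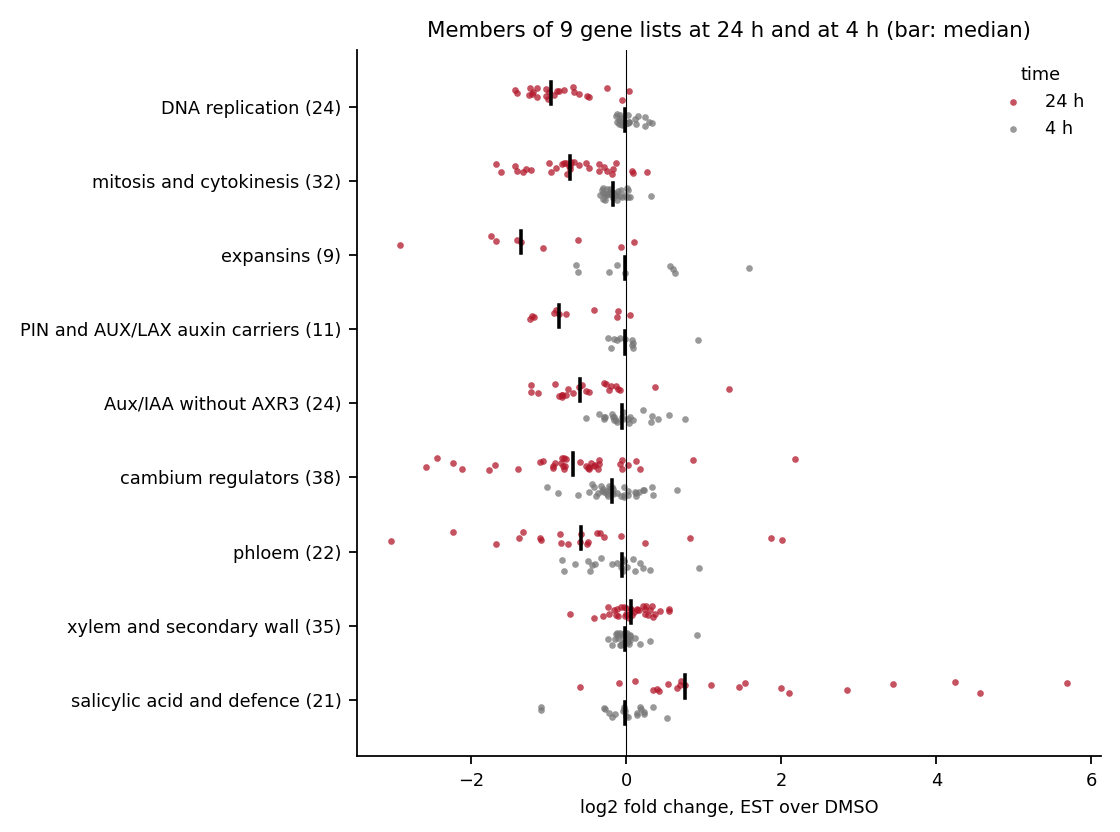
Log2 fold change of EST over DMSO at 24 h (red) and at 4 h (grey) for the genes tested of 9 lists, 1 point a gene, with the median as a bar. DNA replication (medians -0.97 at 24 h and -0.01 at 4 h) and expansins lie below 0 at 24 h, salicylic acid and defence (0.76 and -0.02) above 0, and xylem genes near 0 at both times.

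Among hypoxia-induced genes, ACO1, an ethylene-forming enzyme, had 50.7, 49.4 and 58.3 CPM in EST 24 h and 21.3, 22.98 and 22.97 CPM in DMSO 24 h. At 4 h, ACO1 had 31.7, 32.6 and 36.4 CPM in EST and 38.4, 27.1 and 33.9 CPM in DMSO. The term of ACO1 was 1.21 (SE 0.17, adjusted p = 0.00358) and that of HUP32 was 1.99, the 2 called of 17 tested. ARR16, a type-A response regulator of cytokinin signalling, had 8.29, 7.796 and 7.75 CPM in EST 24 h and 1.94, 1.49 and 1.99 CPM in DMSO 24 h. At 4 h, ARR16 had 1.43, 1.24 and 1.47 CPM in EST and 1.73, 0.941 and 1.03 CPM in DMSO. Its term of 1.98 (adjusted p = 0.00604) was the 1 called of 9 type-A ARR genes, whose median term was -0.136. ARR15, of the same family, went the other way at 24 h, with a log2 fold change of -2.09 (adjusted p = 0.00254). The term of ARR15 was -1.59 and did not pass the test (adjusted p = 0.0983). SAUR9, of an auxin-responsive family, had a term of 2.23, the 1 called of 3 tested. No term was called among 17 photosynthesis genes, 17 circadian clock genes or 11 genes of lateral root initiation, although the DMSO groups differed between the times for 14 of the 17 clock genes. TPPD was the 1 called of 9 trehalose-6-phosphate phosphatase genes. Over all genes, 1.92% of terms were called positive and 3.26% negative. With so few genes in each list, counts of none or 1 do not set these lists apart from all genes.

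The largest terms over all genes included several of no list. The 8 largest positive ones, among genes with groups apart at 24 h and a mean of at least 5 CPM in some group, were those of AT1G21525, AT5G52720, AT5G28145, PBS3, PUB54, DIR5, GRP-3 and AT4G37220. PUB54, a U-box ubiquitin ligase, had 4.17, 6.68 and 7.62 CPM in EST 24 h and 0.415, 0.497 and 0.122 CPM in DMSO 24 h. At 4 h, PUB54 had 0.324, 0.181 and 0.352 CPM in EST and 0.476, 0.307 and 0.323 CPM in DMSO, and the term was 4.53 (SE 0.62, adjusted p = 0.00332). GRP-3, a glycine-rich protein, had 10.9, 14.1 and 17.99 CPM in EST 24 h and 0.969, 1.24 and 0.691 CPM in DMSO 24 h. At 4 h, GRP-3 had 0.593, 0.513 and 0.586 CPM in EST and 1.55, 0.532 and 0.323 CPM in DMSO. Both had low levels in every library but those of EST 24 h. DIR5, a dirigent-like protein, differed, with 5.01, 6.51 and 7.48 CPM in EST 24 h and 0.554, 0.178 and 0.0406 CPM in DMSO 24 h. At 4 h, DIR5 had 5.93, 5.61 and 4.63 CPM in EST and 5.24, 2.21 and 2.91 CPM in DMSO, so that DMSO 24 h was the group standing apart. AT1G21525 had 6.53, 5.72 and 13.6 CPM in EST 24 h and 0.138, 0.106 and 0.0813 CPM in DMSO 24 h, where its 3 libraries held 1 to 3 counts each, so no fold is given for it. The DMSO 24 h libraries also held only 1 to 5 counts of DIR5 and 3 to 14 of PUB54, so the sizes of their terms are uncertain. Of the 5 positive terms with the smallest p, PNP-A, a secreted natriuretic peptide-like protein, had 9.86, 11.6 and 17.7 CPM in EST 24 h and 1.11, 0.852 and 0.691 CPM in DMSO 24 h. At 4 h, PNP-A had 1.402, 1.57 and 1.35 CPM in EST and 1.76, 1.27 and 1.47 CPM in DMSO, and the term was 4.01 (SE 0.36, adjusted p = 0.000662). PBS3 was another, and AT4G10500, annotated as a 2-oxoglutarate-dependent oxygenase, AT1G65500 and AT1G72060 had terms of 2.98, 3.598 and 3.19.

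The 8 largest negative terms were those of AT3G16070, AAE12, CWINV5, PGL5, AT1G10640, MEE47, GASA6 and BGLU1. For AAE12 the EST 24 h libraries held only 1 to 5 counts, so the size of its term is uncertain. AT3G16070 had the smallest p of all terms, with 0.252, 0.395 and 0.607 CPM in EST 24 h and 11.9, 10.6 and 11.8 CPM in DMSO 24 h. At 4 h, AT3G16070 had 5.45, 6.96 and 7.47 CPM in EST and 8.99, 8.31 and 10.8 CPM in DMSO, and the term was -4.28 (SE 0.30, adjusted p = 0.000199). CWINV5, a cell wall invertase that splits sucrose, had 0.672, 0.724 and 1.89 CPM in EST 24 h and 13.98, 7.03 and 18.1 CPM in DMSO 24 h. At 4 h, CWINV5 had 32.5, 42.8 and 86.9 CPM in EST and 41.6, 42.1 and 67.5 CPM in DMSO, and the term was -3.68 (SE 0.68, adjusted p = 0.0117). EST 24 h libraries were the lowest for both, and for CWINV5 the DMSO level was lower at 24 h than at 4 h. BGLU1, a beta-glucosidase, had 1.93, 1.78 and 1.85 CPM in EST 24 h and 11.9, 9.45 and 18.2 CPM in DMSO 24 h. At 4 h, BGLU1 had 6.04, 7.33 and 11.02 CPM in EST and 4.26, 6.12 and 8.49 CPM in DMSO, and the term was -3.20 (SE 0.43, adjusted p = 0.00320). AT3G25290, annotated as an auxin-responsive family protein and among the 5 negative terms with the smallest p, had 5.77, 6.15 and 7.99 CPM in EST 24 h and 66.2, 74.2 and 71.8 CPM in DMSO 24 h. At 4 h, AT3G25290 had 23.9, 29.5 and 27.2 CPM in EST and 40.9, 53.9 and 66.3 CPM in DMSO. Its 4-h effect did not pass the test (adjusted p = 0.0628), and its term was -2.42. AT2G28790, a thaumatin-like protein gene, and AT3G56370, a leucine-rich repeat kinase gene, had terms of -2.32 and -1.29. AT3G16070, SHY2, CYCA2;3, CDKB1;1, CLE45, CWINV5, GASA6, AT1G10640, IAA9, ICU2, AT3G05770, AT2G40200, AT1G72060, AT1G10530, MES10 and AT3G47800 overlap a gene on the other strand, and since the strand setting of the counting is not stated, reads of the partners could have been mixed.

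The same term was taken from the 12 libraries that also received BAP, as EST + BAP against BAP at 24 h minus the same at 4 h, and these libraries share none with the 12 above. They belonged to the same 24-h and 4-h experiments, so the limit of separate experiments holds for them too. There the term was called for 1984 genes in the positive (9.11%) and 2007 in the negative direction (9.22%) of 21774 tested. Of the 416 genes of positive term without BAP that were tested, 281 (67.55%) were called positive with BAP, and none negative. Of the 718 genes of negative term, 411 (57.24%) were called negative with BAP, and 1 positive. In the other direction, the genes called without BAP were 14.24% of 1973 genes positive with BAP and 20.55% of 2000 negative with BAP. The sign was shared by 405 of 416 genes of positive term (97.36%) and 684 of 718 of negative term (95.26%), while over all genes 53.8% of terms with BAP were positive and 46.19% negative. The median term with BAP was 0.92 for the genes of positive and -0.56 for those of negative term.

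The calls with and without BAP come from separate fits and are set side by side here. Over all genes, terms were called negative for 9.22% with BAP and 3.26% without, and positive for 9.11% with BAP and 1.92% without. A higher count with BAP in a list therefore stands beside a higher share over all genes. For DNA replication the term was called negative for 1 of 24 genes with BAP, against 16 without, and the median effects with BAP were -0.51 at 24 h and -0.33 at 4 h. MCM3 had 30.4, 33.2 and 33.6 CPM in EST + BAP 24 h and 46.8, 51.9 and 48.9 CPM in BAP 24 h. At 4 h, MCM3 had 26.4, 28.04 and 25.3 CPM in EST + BAP and 33.4, 34.95 and 35.8 CPM in BAP. With BAP, the MCM3 libraries were thus apart at both times, with a 4-h log2 fold change of -0.38 (adjusted p = 0.0144) and a term of -0.22 (adjusted p = 0.134). For expansins no term was called with BAP, against 4 of 9 without. EXPA15 had 207, 204 and 205 CPM in EST + BAP 24 h and 383, 378 and 444 CPM in BAP 24 h. At 4 h, EXPA15 had 158, 216 and 147 CPM in EST + BAP and 330.3, 272 and 289 CPM in BAP, and was apart at both times. For mitosis the term was called negative for 22 of 32 genes with BAP, against 6 without, and positive for 1. CYCA2;3 had 10.02, 11.7 and 12.2 CPM in EST + BAP 24 h and 27.1, 29.5 and 27.2 CPM in BAP 24 h. At 4 h, CYCA2;3 had 16.6, 16.8 and 15.2 CPM in EST + BAP and 22.2, 22.3 and 27.1 CPM in BAP, and a term of -0.75 (adjusted p = 0.00359). For salicylic acid and defence 13 terms were positive and 1 negative with BAP, against 10 and 0 without. PBS3 had 9.18, 9.67 and 9.47 CPM in EST + BAP 24 h and 0.679, 0.321 and 0.711 CPM in BAP 24 h. At 4 h, PBS3 had 1.09, 0.542 and 0.335 CPM in EST + BAP and 0.471, 0.523 and 0.444 CPM in BAP.

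The difference between the terms with and without BAP was tested in a fit of all 24 libraries. Of 22446 genes, 1 passed, and 1682 had an unadjusted p under 0.05. That gene was AT3G15680, with 5.39, 3.74 and 2.91 CPM in EST + BAP 24 h and 21.3, 17.9 and 21.1 CPM in BAP 24 h. At 4 h, AT3G15680 had 4.23, 3.54 and 3.21 CPM in EST + BAP and 16.4, 15.8 and 15.6 CPM in BAP. Its term was -0.20 with BAP and -2.65 without, a difference of 2.41 in the fit of all 24 (adjusted p = 0.0173). No member of any list passed, so the counts of calls with and without BAP are not shown to differ for any single member. An unadjusted p under 0.05 was found for 18 of the 24 DNA replication genes, 7 of the 9 expansins, 2 of the 32 mitosis genes and 1 of the 21 salicylic acid and defence genes. For AXR3 the term with BAP was -1.22 (adjusted p = 0.000207), and AXR3 had 170.5, 150.0 and 138 CPM in EST + BAP 24 h and 218, 195 and 205 CPM in BAP 24 h. At 4 h, AXR3 had 259, 281 and 313 CPM in EST + BAP and 162, 154 and 176 CPM in BAP. The EST + BAP libraries thus lay below BAP at 24 h and above BAP at 4 h. All 13 genes called at 4 h without BAP were also called there with BAP, in the same direction. Of the 21774 genes tested with BAP, 140 were called higher and 113 lower in EST + BAP than in BAP at 4 h.

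**Figure D4:**
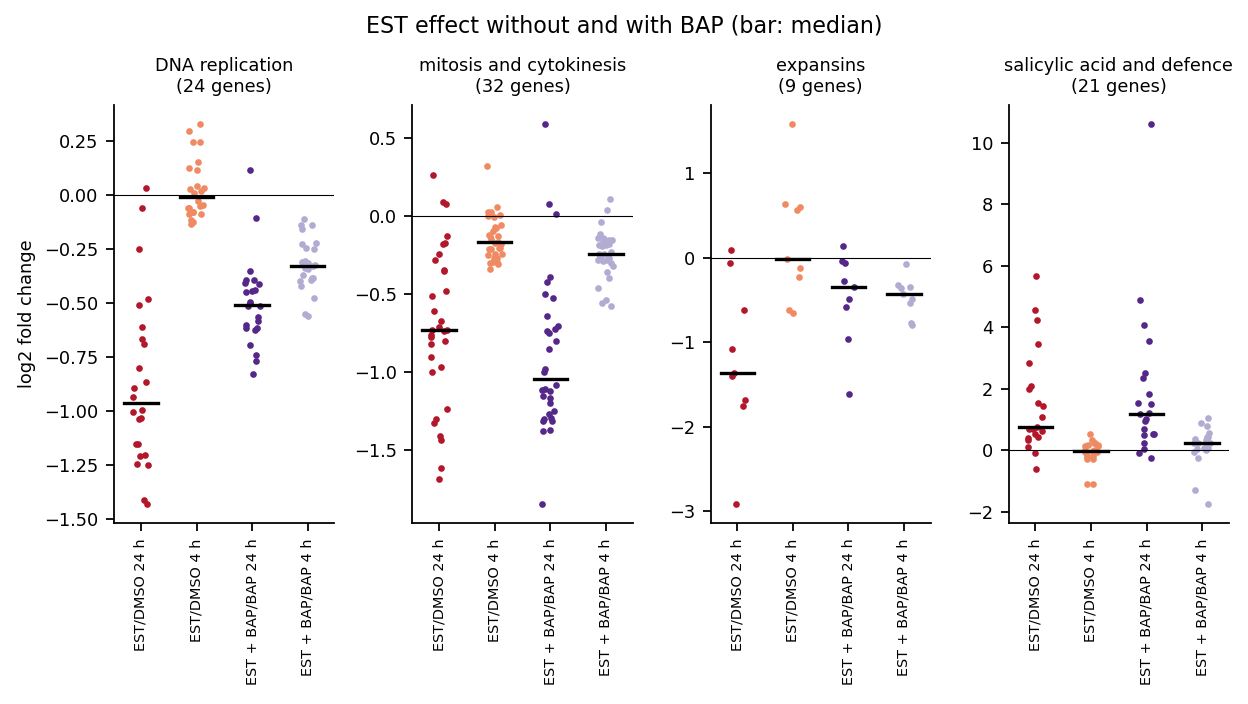
Log2 fold change at 24 h and 4 h for the genes of 4 lists, as EST over DMSO and as EST + BAP over BAP, 1 point a gene, with the median as a bar and a separate vertical axis for each list. DNA replication genes have medians of -0.97 and -0.01 without BAP and of -0.51 and -0.33 with BAP.

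Markers of tissues that a segment of the older root should hold little of varied among the 4-h libraries. EST 4 h replicate 1 and DMSO 4 h replicate 1 were the highest of their groups for the 3 lists, and the part of this in the results was not tested beyond the omission given last. The summed level of 8 epidermis and root hair genes was 9.57 to 19.0 CPM in EST 24 h and 10.8 to 15.5 CPM in DMSO 24 h, against 9.82 to 63.1 CPM in EST 4 h and 6.29 to 29.6 CPM in DMSO 4 h. That of 8 endodermis genes was 22.8 to 45.2 CPM in EST 24 h and 27.3 to 32.0 CPM in DMSO 24 h, against 25.2 to 79.4 CPM in EST 4 h and 15.5 to 39.8 CPM in DMSO 4 h. For 4 of 5 root tip genes tested it reached at most 2.16 CPM in EST 24 h and 2.13 CPM in DMSO 24 h, against 10.03 CPM in EST 4 h and 4.32 CPM in DMSO 4 h. No gene of these lists had a called effect or term, and none was at 0 in a whole group. Without EST 4 h replicate 1, 333 positive and 743 negative terms were called, 301 and 590 of them shared with those of all 12 libraries, and 12 genes were higher and 1 lower at 4 h.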

How the data were processed

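The series holds 24 RNA libraries from roots, 3 in each of 8 groups, and 12 of them were compared here. The authors depleted ribosomal RNA, made strand-specific libraries, trimmed reads with Trimmomatic 0.36, quantified them with kallisto 0.43.0 on the AtRTD2 transcripts and deposited the estimated counts of 34212 genes as unnormalised whole numbers. The strand option of kallisto is not given in the sources used here. Groups came from the sample labels, all columns were used, and genes were matched to the RefSeq TAIR10.1 annotation by locus name (33437 matched).

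A model with a term for each of the 4 groups was fitted in edgeR 4.0.16 (R 4.3.3) with TMM normalization, filterByExpr (minimum count 10) and its quasi-likelihood test, using Benjamini-Hochberg adjustment over all genes tested. The EST by time term was called at an adjusted p of 0.05, and effects at one time also at 0.5 or more in absolute log2 fold change. CPM are TMM-normalised. The same term was fitted in the 12 libraries with BAP, and the difference of both terms in all 24. The test was checked on simulated counts. The replicates of a group differed by more than sampling noise (chi-square per degree of freedom at least 19.1), and none was counted as a duplicate. The study repeated each experiment 3 times, and p-values measure the spread between these samples.

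The libraries and gene lists were chosen with earlier results of these data known. The values of 1 list member are not reported here. Genes named are AXR3, TPPD and any gene called at both times with opposite signs, the 5 genes with the smallest p at 4 h, the 8 largest called terms in each direction (groups apart at 24 h and a mean of at least 5 CPM in some group), the 5 smallest p in each direction, the 3 smallest p of each list, and cambium regulators named by the study. Other members of a list are given as its called or uncalled members.

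Promoter letters were read from the TAIR10.1 genome, and copies of the named genes were looked for with blastn 2.17.0, taking 95% identity over 50% of a transcript as the minimum. Alternatives were DESeq2 size factors, a block for the replicate number, no filter on low counts, DESeq2 1.42.0, organelle and ribosomal RNA genes left out, thinning to the lowest nuclear count, fits of 24 libraries or of the 6 of one time, a log2 cutoff of 1, and each library left out in turn.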

Additional observations from a re-analysis of the deposited data

Results flagged for a closer look

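Results are given here because the EST effect differed between the 24-h and the 4-h experiment by the test of the difference itself, edgeR's quasi-likelihood test of the EST by time term. They are the 422 genes of positive and the 718 genes of negative term, and the called members of 9 lists, namely 16 DNA replication genes, 6 of mitosis and cytokinesis, 5 histone genes, 4 expansins, 6 Aux/IAA genes, 4 auxin carriers, 8 cambium regulators and 6 phloem genes with negative terms, and 10 genes of salicylic acid and defence with positive terms. Every gene with a called term in the report meets the same criterion. AXR3 did so with a term of -1.46, from a larger effect at 4 h. AT3G15680 was the 1 gene whose term differed with BAP, by 2.41. IAA1 (term -1.12) and AT5G10400 (term -1.18) are given because all EST libraries lay below all DMSO libraries at 24 h and above them at 4 h. Groups apart in opposite directions at the 2 times were found for 42 genes of positive and 48 of negative term. The pattern is thus not particular to IAA1 and AT5G10400, and a called term favours it. In these 2 genes the terms passed the test, while the 4-h effects alone did not.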

How the results depend on the processing

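Of 62 named genes with a called term, 42 kept the call under all 19 alternatives applied to single genes, and none of the 1178 values was reversed (70 no longer passed). The log2 cutoff of 1 was not among these 19. Called terms of smaller size, such as that of SHY2 (-0.95), would not pass it. The counts of positive and negative terms were 851 and 1112 with DESeq2, 231 and 420 with libraries thinned, 836 and 1408 with all 24 libraries in one fit, and 245 and 406 at a log2 cutoff of 1. That cutoff left 521 higher and 742 lower genes at 24 h, and 654 positive and 436 negative terms with BAP. At 4 h, 38 genes were higher and 9 lower with DESeq2, 2 were higher when the 6 libraries of that time were fitted alone, and 2 were lower with no filter on low counts, with the replicate block, with organelle and ribosomal RNA genes left out or with libraries thinned. Without any 1 library, positive terms ranged from 182 to 571, negative terms from 289 to 868, genes higher at 24 h from 687 to 1199, genes lower at 24 h from 1140 to 1876, genes higher at 4 h from 5 to 13, and genes lower at 4 h from 1 to 2. With BAP they ranged from 1396 to 2207 positive and from 1499 to 2181 negative terms. The cause of these shifts was not tested, other than fewer samples or counts where libraries were left out or thinned.

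The labels share replicate numbers, but same-numbered EST and DMSO libraries did not all deviate together (r of -0.011, -0.008 and 0.068 at 24 h, and 0.544, -0.053 and 0.458 at 4 h), so the numbers were not taken to pair the samples, although 2 of the 3 pairs at 4 h did deviate together. With the replicate block, 517 positive and 963 negative terms were called, 363 and 650 of them shared with the fit without it, and 1191 genes were higher and 1854 lower at 24 h. The times were separate experiments, so an effect of time cannot be told apart from a difference between the experiments. This holds for the DMSO difference and for the EST by time term, without and with BAP. DMSO 24 h replicate 1, with 6001669 nuclear counts, limits low genes at 24 h.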
